A study of Solanum lycopersicum with 12 samples.

Results

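The subject is a set of 107 tomato probe sets whose mean signal lay on the same side of the untreated control, by at least 0.3 on the log2 scale (1.23-fold), with each of 3 Trichoderma harzianum strains. They were found by subtracting the mean log2 signal of the control arrays from the mean of each strain for all 10038 tomato probe sets. Of these, 57 were higher and 50 were lower than control with amds122, amds6 and T34 alike. A probe set is a group of short probes on the array that reads 1 transcript, and the log2 signal is its brightness, so that a difference of 1 is a 2-fold difference. The members were thus chosen by these differences from control. For the members, the differences from control are given as a description, and the 3 control arrays enter all 3 of them. Adjusted p-values of members against control appear only in gene list counts and among the alternatives at the end, and nothing is read from them.

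The array was the Affymetrix Tomato Genome Array, and the RNA came from aerial parts of 3-week-old plants of the tomato cultivar Marmande grown in autoclaved field soil in a greenhouse. The study asked how the plant transcriptome responds to a biocontrol fungus and whether a fungal acetamidase changes that response. The 4 groups had 3 arrays each, and an array carried RNA pooled from several plants, so that replicates are pools and not single plants. The sample labels name the tissue both as aerial parts and as leaves, and they give a spore density for the seed coating that differs from that in the methods of the study.

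Amds122 plants grew from seeds coated with spores of amds122, a T. harzianum T34 transformant that expresses the Aspergillus nidulans acetamidase gene amdS from the A. nidulans gpdA promoter. Amds6 plants grew from seeds coated with amds6, a second transformant with the same cassette and fewer copies of it. Each transformant was 1 line, so an effect of the cassette and an effect of that line cannot be told apart. T34 plants grew from seeds coated with the untransformed wild-type strain. Control plants grew from seeds that received no spores. The labels and the methods call these seeds untreated, whereas the study elsewhere describes greenhouse controls coated with the liquid alone, and which of these holds for the arrays is not settled by the sources.

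Trichoderma fungi colonize roots, and the shoot responds at a distance through mobile signals. In tomato, leaf defence includes protease inhibitors that hinder the digestion of insects, lipoxygenases that oxidize fatty acids to volatiles and to precursors of jasmonate, and terpenes made in glandular trichomes. Early responses to stress and microbes also run through WRKY, NAC and ethylene-related transcription factors, and through enzymes that loosen or stiffen the cell wall.

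The weakest probe set had a log2 signal of 3.31 and the brightest 14.74, and the array medians lay between 7.80 and 7.87. Any pair of arrays from 1 group correlated at 0.99757 or more, and any pair from different groups at 0.9862 or more. The 8 probe sets of photosynthesis genes, which define green tissue, differed from control by -0.04 to 0.06 over the 3 strains, none of them past an adjusted p of 0.1 in limma. In bulk tissue, fewer cells of a type and less RNA per cell cannot be told apart. The signal at the 3′ end minus that at the 5′ end of actin, ef1a and gapdh, a measure of RNA degradation, was 2.70 ± 0.12 in amds122, 2.89 ± 0.0693 in amds6, 3.03 ± 0.0470 in T34 and 3.17 ± 0.0547 in control plants (SD, n = 3 each), so that it differed from control in the same direction with all 3 strains.

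The 57 higher members exceeded control by a median of 0.56 with amds122, 0.67 with amds6 and 0.37 with T34 on the log2 scale. The 50 lower members lay below control by more in the transformants, with a median of -0.88 with amds122, -0.88 with amds6 and -0.39 with T34. Over all 10038 probe sets the medians were 0.02, 0.01 and -0.00 in the same order of strains. T34 gave the smallest of the 3 differences for 37 higher and 43 lower members, and the largest for 2 and 2. Of the higher members, 7 were 2-fold or more above control with amds122, 15 with amds6 and 2 with T34, which were neryl diphosphate synthase 1 and the cathepsin D inhibitor. Of the lower members, 23 were 2-fold or more below control with amds122, 21 with amds6 and 0 with T34. Among all probe sets 0.438%, 0.339% and 0.0598% were that far above control with amds122, amds6 and T34, and 1.71%, 1.33% and 0.0299% that far below. The rule used these differences, so nothing is read from the gap between the members and all probe sets. Only the probe set of neryl diphosphate synthase 1 was at least 2-fold from control with all 3 strains.

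**Figure D1:**
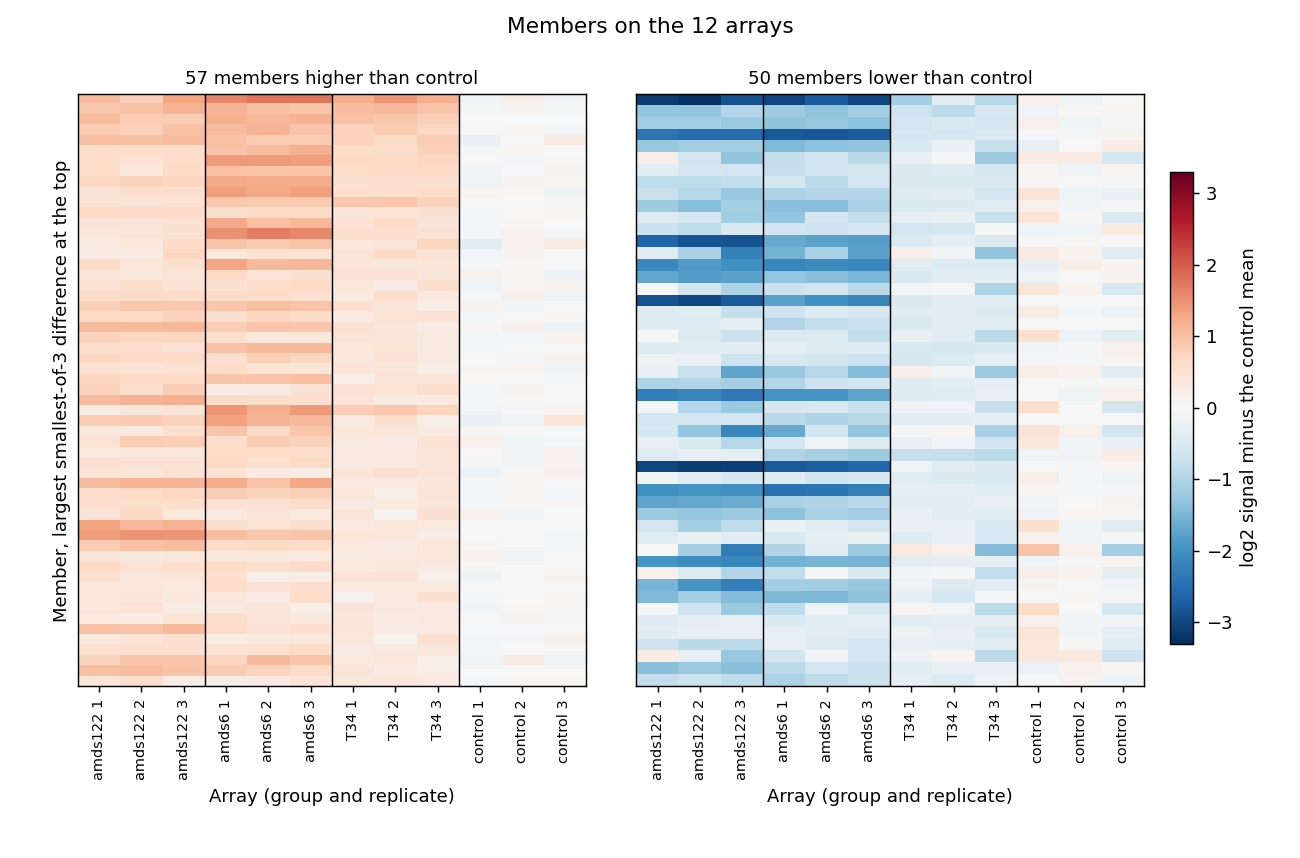
Log2 signal of each member (rows, those with the largest smallest-of-3 difference at the top) on each of the 12 arrays (columns, by group), minus the mean of its 3 control arrays; red is above and blue below the control mean. The 57 higher members are red on nearly all strain arrays, whereas among the 50 lower members the deep blue of the amds122 and amds6 arrays is pale on the T34 arrays, and some rows differ between the replicates of a group.

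All 9 strain arrays lay above all 3 control arrays for 53 of the 57 higher members, against 5.83% of all probe sets. All 9 lay below the control arrays for 31 of the 50 lower members, against 3.48% of all probe sets. Both counts follow from a rule that used the same arrays, and nothing is read from them. The members nearest to the limit on the inner side had a smallest difference of 0.302, 0.303 and 0.305 among the higher and -0.30, -0.305 and -0.311 among the lower ones. The nearest on the outer side had 0.299, 0.296 and 0.293 and -0.294, -0.286 and -0.285, so that the limit cuts through an unbroken range of values.

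The members were not the brightest probe sets. The mean log2 signal had a median of 7.51 in the higher and 6.51 in the lower members, against 7.83 over all probe sets, and the median SD within groups was 0.0896 and 0.149 against 0.0792. Their identifiers were of the same kinds as those of the array: 36.8% of the higher and 48% of the lower members came from sequences that the maker of the array named LesAffx, against 41.5% overall. A gene symbol was available for 9 higher and 7 lower members, and a description in the tables of the study for 2 and 6 more, which leaves 46 and 37 with neither.

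The largest difference shared by all strains belonged to the probe set Les.415.1.A1_a_at, described as neryl diphosphate synthase 1, an enzyme of glandular trichomes that makes the precursor of the monoterpenes of tomato leaves. Its log2 signal was 6.80, 6.56 and 7.07 in amds122, 7.37, 7.53 and 7.54 in amds6, and 6.97, 7.23 and 6.97 in T34 plants, against 5.63, 6.00 and 5.67 in control plants. Every strain array lay above every control array, and the amds6 arrays lay above those of the other strains. The differences from control were 1.04 with amds122, 1.71 with amds6 and 1.29 with T34 (2.06-fold, 3.27-fold and 2.44-fold). Amds6 was higher than T34 by 0.42 (95% interval 0.14 to 0.70, adjusted p = 0.0235) and the difference of amds122 from amds6 was -0.67 (interval -0.95 to -0.38, adjusted p = 0.00212), both by limma. The difference of amds122 from T34 was -0.25 (interval -0.53 to 0.04, adjusted p = 0.153). The probes of this set are shared by several transcripts of 1 cluster. Another set of the cluster, Les.415.1.A1_at, was also a member, with differences from control of 0.35 with amds122, 1.35 with amds6 and 0.82 with T34. The remaining set, Les.415.2.S1_at, was dim and had 0.05, 0.84 and 0.23 in the same order, so that all 3 sets were highest with amds6 and only the first exceeded control 2-fold with amds122.

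A second terpene enzyme stood among the higher members. SSTLE1, a sesquiterpene synthase of trichomes also named TPS9, had log2 signals of 6.89, 6.77 and 6.89 in amds122, 7.70, 7.71 and 7.66 in amds6, and 6.92, 6.95 and 6.97 in T34 plants, against 6.28, 6.26 and 6.34 in control plants. The 4 groups did not overlap, with amds122 just under T34 and amds6 far above both. SSTLE1 differed from control by 0.56 with amds122, 1.40 with amds6 and 0.66 with T34. The excess of amds6 over T34 was 0.74 (95% interval 0.65 to 0.84, adjusted p = 9.99e-08), and the difference of amds122 from T34 was -0.10 (interval -0.19 to -0.00, adjusted p = 0.0965). Its probes are marked as shared with other sequences, so related terpene synthases may contribute. MTS1, a monoterpene synthase of trichomes, was no member, with differences of -0.17 with amds122, 0.10 with amds6 and -0.04 with T34. Among 15 probe sets of terpene and isoprenoid synthesis with a gene symbol, 9 passed an adjusted p of 0.1 against control in limma upward and 0 downward with amds122, 5 and 2 with amds6, and 1 and 1 with T34. SSTLE1 alone of these 15 was a member. The probe set of neryl diphosphate synthase 1, which has no symbol, was not in this list. Of all probe sets, 30% passed upward and 22% downward with amds122, 29% and 20.9% with amds6, and 5.72% and 4.17% with T34. The 2 downward calls with amds6 changed sign when arrays were scaled on hybridisation spikes.

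The cathepsin D inhibitor, an inhibitor of aspartic proteases, was the member with the most even response. Its probe set Les.1783.1.A1_at read 10.11, 10.18 and 10.36 in amds122, 10.35, 10.21 and 10.14 in amds6, and 10.23, 10.28 and 10.16 in T34 plants, against 9.15, 9.32 and 9.19 in control plants. The 3 strains overlapped and all stood above control, by 0.99 with amds122, 1.02 with amds6 and 1.00 with T34 (1.99-fold, 2.02-fold and 2.01-fold). Between the strains, the differences were 0.01 for amds6 minus T34 (95% interval -0.15 to 0.18), -0.01 for amds122 minus T34 (-0.18 to 0.15) and -0.02 for amds122 minus amds6 (-0.19 to 0.14), none past the adjusted p. The intervals thus allow a difference of 0.19 between amds122 and amds6 in the direction of amds6. A separate probe set with the symbol cathDInh was no member, with 0.09 with amds122, 0.19 with amds6 and 0.15 with T34. A list of anti-herbivore and wound proteins (arginases, leucine aminopeptidases, threonine deaminase, polyphenol oxidase and protease inhibitors) held 13 probe sets with a gene symbol. Les.1783.1.A1_at, which has no symbol, was not in this list. Of the 13, 0 were members, where 107 of all 10038 probe sets were, so nothing is read from the 0. Among the 13, 1 passed upward and 5 downward with amds122, 5 upward and 0 downward with amds6, and 5 upward and 0 downward with T34.

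The lipoxygenase loxC (TomloxC), which oxidizes fatty acids on the way to short-chain volatiles, had log2 signals of 7.93, 7.72 and 7.69 in amds122, 8.05, 7.99 and 8.03 in amds6, and 7.84, 7.79 and 7.66 in T34 plants, against 6.90, 6.87 and 6.88 in control plants. The control arrays lay close together and below all strain arrays, and the amds6 arrays above those of both other strains. LoxC differed from control by 0.90 with amds122, 1.14 with amds6 and 0.88 with T34, and amds6 exceeded T34 by 0.26 (95% interval 0.12 to 0.40, adjusted p = 0.00735). Amds122 and T34 differed by 0.02 (interval -0.12 to 0.16, adjusted p = 0.855). The other lipoxygenases with a gene symbol were no members. LoxD, which serves jasmonate synthesis, had -0.30 with amds122, 0.33 with amds6 and -0.14 with T34, and LOXB, LOX1.1 and TomloxE had differences between -0.48 and 0.22. Over 13 probe sets of lipoxygenases and jasmonate genes the median difference was 0.03 with amds122, 0.12 with amds6 and 0.06 with T34, and loxC was the only member.

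**Figure D2:**
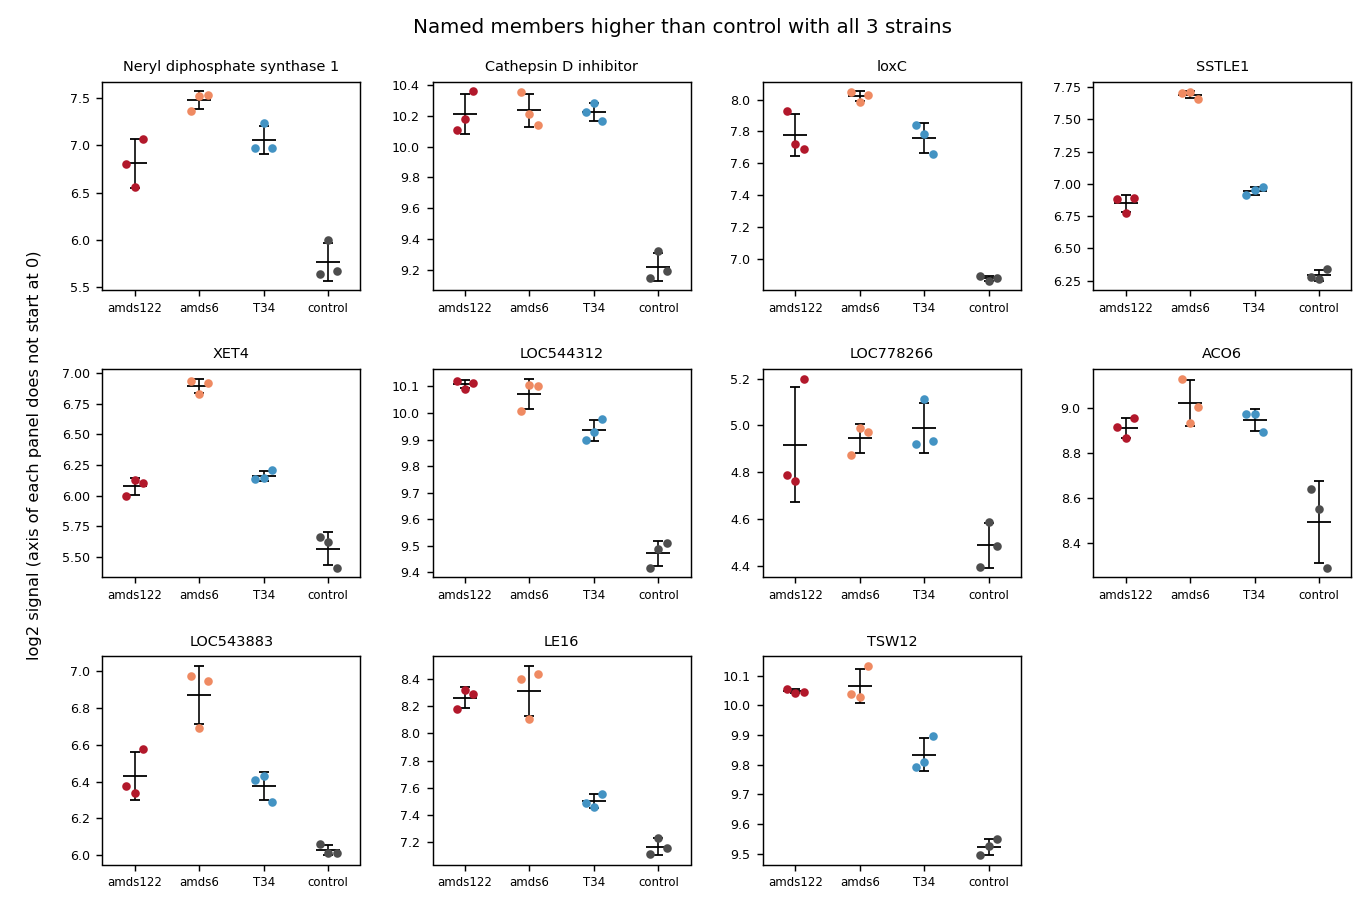
Log2 signal of the 11 named members above control, 1 panel each, with a point per array, the group mean as a horizontal line and error bars of 1 SD (n = 3); groups run amds122, amds6, T34 and control, and the axes do not start at 0. All strain points lie above all control points in every panel, the 3 strains coincide for the cathepsin D inhibitor, and amds6 stands above T34 and amds122 for SSTLE1 and XET4.

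XET4, a xyloglucan endotransglucosylase that cuts and rejoins a polymer of the growing cell wall, read 6.00, 6.13 and 6.10 in amds122, 6.94, 6.83 and 6.92 in amds6, and 6.13, 6.15 and 6.21 in T34 plants, against 5.66, 5.63 and 5.41 in control plants. As for SSTLE1, amds6 stood apart from the other strains. Its differences from control were 0.51, 1.33 and 0.60 with amds122, amds6 and T34, and amds6 exceeded T34 by 0.73 (95% interval 0.59 to 0.88, adjusted p = 4.11e-06). Another gene of this family, XTH3, was a lower member and is described further down. Over the 13 probe sets of this family with a gene symbol, 6 passed upward and 7 downward with amds122, 10 and 3 with amds6, and 3 and 1 with T34.

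ACO6, an ACC oxidase that carries out the last step of ethylene synthesis, had log2 signals of 8.91, 8.87 and 8.95 in amds122, 9.13, 8.93 and 9.00 in amds6, and 8.98, 8.97 and 8.89 in T34 plants, against 8.64, 8.55 and 8.29 in control plants. It differed from control by 0.42 with amds122, 0.53 with amds6 and 0.45 with T34. No pair of strains passed the adjusted p, and the intervals of their differences ran from -0.29 to 0.25. Of the other 2 ACO6 probe sets, 1 had 0.19, 0.33 and 0.18 with amds122, amds6 and T34, and the brightest had -0.01, -0.01 and -0.02, so that the sets of this gene disagree. ACO4, another ACC oxidase, was lower than control with the transformants and higher with T34, with -0.63 with amds122, -0.37 with amds6 and 0.25 with T34, all past the adjusted p. Over 40 probe sets of ethylene synthesis and signalling, 9 passed upward and 15 downward with amds122, 13 and 12 with amds6, and 5 and 1 with T34, and 5 of the amds6 calls changed sign when arrays were scaled on hybridisation spikes. Members among them were ACO6 above control and ER24 below it.

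The members LE16 and TSW12 are lipid transfer proteins, small secreted proteins that bind lipids and are linked to the cuticle and to defence. LE16 read 8.18, 8.32 and 8.29 in amds122, 8.40, 8.10 and 8.44 in amds6, and 7.49, 7.46 and 7.56 in T34 plants, against 7.11, 7.23 and 7.16 in control plants. TSW12 read 10.05, 10.04 and 10.04 in amds122, 10.04, 10.03 and 10.13 in amds6, and 9.79, 9.81 and 9.90 in T34 plants, against 9.50, 9.53 and 9.55 in control plants. Both showed the same order: the transformants overlapped each other, T34 stood below them and control below T34, with no overlap between these 3 levels. LE16 differed from control by 1.09 with amds122, 1.14 with amds6 and 0.33 with T34, and it was higher than T34 by 0.76 with amds122 (95% interval 0.59 to 0.93, adjusted p = 1.01e-05) and by 0.81 with amds6 (0.64 to 0.98, adjusted p = 8.03e-06). TSW12 differed from control by 0.52, 0.54 and 0.31 with amds122, amds6 and T34, and from T34 by 0.21 with amds122 (0.12 to 0.31, adjusted p = 0.00185) and 0.23 with amds6 (0.14 to 0.33, adjusted p = 0.00128). The transformants differed by -0.05 for LE16 and -0.02 for TSW12, with neither past the adjusted p. In the RefSeq annotation of assembly SLM_r2.1 these genes lie on chromosome 10 with another lipid transfer gene, ltpg1, between them and no other gene. Ltpg1 was no member, with differences from control of -0.00 with amds122, 0.10 with amds6 and 0.03 with T34.

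The remaining named members above control carry LOC symbols and are given no role here. LOC544312 averaged 10.11 ± 0.0152 in amds122, 10.07 ± 0.0573 in amds6, 9.93 ± 0.0398 in T34 and 9.47 ± 0.0482 in control plants (SD, n = 3 each). LOC543883 averaged 6.43 ± 0.130 in amds122, 6.87 ± 0.158 in amds6, 6.38 ± 0.0758 in T34 and 6.03 ± 0.0286 in control plants. For LOC544312 both transformants exceeded T34, by 0.17 with amds122 (adjusted p = 0.00705) and 0.14 with amds6 (adjusted p = 0.0273), whereas for LOC543883 amds6 alone did, by 0.50 (adjusted p = 0.000473). LOC778266 was dim, with 4.92 ± 0.245 in amds122, 4.94 ± 0.0625 in amds6, 4.99 ± 0.106 in T34 and 4.49 ± 0.0958 in control plants, and no pair of strains differed past the adjusted p. An antisense-oriented probe set of the same cluster had differences of -0.02, -0.24 and -0.15 with amds122, amds6 and T34.

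The lower members held the widest differences from control. In 19 of the 50 the signal was at least 2-fold below control with amds122 and with amds6, and 10 of these 19 were named. The T34 difference of these 19 ran from -0.81 to -0.32 with a median of -0.40, while the medians with amds122 and amds6 were -1.91 and -1.46. The other 31 lower members had a T34 median of -0.37, close to that of the deep ones, but medians of only -0.58 with amds122 and -0.63 with amds6. The T34 differences covered about the same range in both groups of lower members. The rule set the same limit on them in both groups, so nothing is read from this likeness.

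The member furthest below control with all strains was LesAffx.16102.1.S1_at, described as an AAA ATPase, a member of a broad family of ATP-driven protein-remodelling enzymes. It read 4.63, 4.52 and 4.90 in amds122, 4.75, 5.04 and 4.75 in amds6, and 6.65, 7.42 and 6.82 in T34 plants, against 7.90, 7.64 and 7.77 in control plants. The T34 arrays were widely spread but stayed below control and far above both transformants. The differences from control were -3.09 with amds122, -2.93 with amds6 and -0.81 with T34 (8.50-fold, 7.61-fold and 1.75-fold lower). The difference from T34 was -2.28 for amds122 (95% interval -2.65 to -1.91, adjusted p = 5.99e-07) and -2.12 for amds6 (-2.49 to -1.75, adjusted p = 1.59e-06). The transformants differed by -0.16 (-0.53 to 0.21, adjusted p = 0.522).

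The probe set LesAffx.22812.2.S1_at, described as a ubiquitin ligase, an enzyme that tags proteins for degradation, read 5.35, 5.23 and 5.23 in amds122, 4.99, 4.96 and 5.03 in amds6, and 7.23, 7.19 and 7.30 in T34 plants, against 7.74, 7.73 and 7.86 in control plants. Its replicates were tight and the 4 groups did not overlap. It differed from control by -2.51 with amds122, -2.78 with amds6 and -0.54 with T34, and from T34 by -1.97 with amds122 (adjusted p = 5.07e-11) and -2.24 with amds6 (adjusted p = 1.90e-11). Here amds6 was the lower transformant, with amds122 higher by 0.27 (95% interval 0.16 to 0.39, adjusted p = 0.00204).

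**Figure D3:**
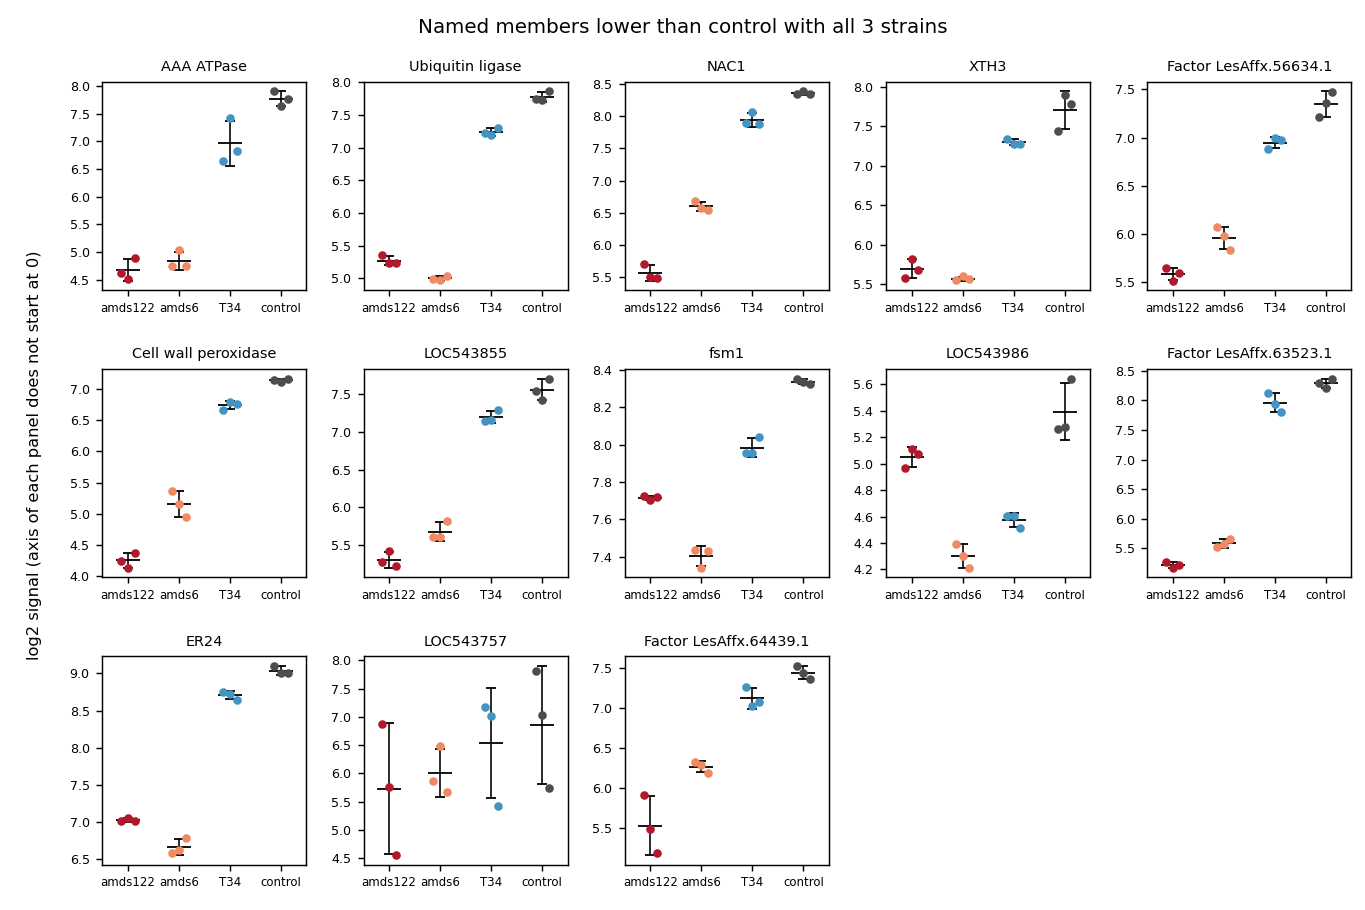
Log2 signal of the 13 named members below control, 1 panel each, with a point per array, the group mean as a horizontal line and error bars of 1 SD (n = 3); groups run amds122, amds6, T34 and control, "Factor" marks the 3 probe sets known only as transcription factors, and the axes do not start at 0. In 10 panels both transformants lie far below T34 and T34 a little below control, whereas LOC543986 is lowest with amds6 and T34, fsm1 is lowest with amds6 by a small margin, and LOC543757 overlaps between all groups.

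The names of the lower members lean on the tables of the study, which list genes selected on these arrays and hold 11 of the 50 lower and 2 of the 57 higher members, so that no theme can be read from them. NAC1, a NAC-domain factor of stress and defence, read 5.71, 5.51 and 5.49 in amds122, 6.68, 6.58 and 6.55 in amds6, and 7.89, 8.06 and 7.87 in T34 plants, against 8.34, 8.38 and 8.34 in control plants. The groups formed 4 separate levels, with differences from control of -2.78 with amds122, -1.75 with amds6 and -0.41 with T34. NAC1 was the only lower member called at 2-fold between the transformants, at -1.03 for amds122 minus amds6 (95% interval -1.18 to -0.89, adjusted p = 5.76e-07). It fell just short of 2-fold without amds122 replicate 3 (-0.995), without amds6 replicate 1 (-0.994), after centring of the arrays (-0.996) and after a further quantile normalization (-0.999). From T34 it differed by -2.37 with amds122 (adjusted p = 8.64e-11) and -1.34 with amds6 (adjusted p = 2.33e-08).

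LOC543855, also named WRKYIId-2, encodes a WRKY factor of the group whose members bind calmodulin. It read 5.27, 5.42 and 5.21 in amds122, 5.60, 5.60 and 5.82 in amds6, and 7.15, 7.16 and 7.30 in T34 plants, against 7.55, 7.43 and 7.71 in control plants. The T34 arrays lay just under the control arrays without overlap. Its differences were -2.26, -1.89 and -0.36 with amds122, amds6 and T34, and its differences from T34 were -1.90 for amds122 (adjusted p = 5.81e-09) and -1.53 for amds6 (adjusted p = 5.67e-08). Other WRKY probe sets were no members: WRKYIId-1 had -0.90 with amds122, -0.74 with amds6 and 0.01 with T34, and WRKYIId-4 had -1.50, -0.62 and 0.08. Of 7 WRKY probe sets, 1 passed upward and 5 downward with amds122, 1 and 4 with amds6, of which 1 changed sign when arrays were scaled on hybridisation spikes, and 0 and 1 with T34, and LOC543855 was the only member.

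ER24, an ethylene-responsive coactivator also named MBF1, read 7.02, 7.06 and 7.02 in amds122, 6.59, 6.62 and 6.79 in amds6, and 8.75, 8.72 and 8.65 in T34 plants, against 9.10, 9.01 and 9.00 in control plants. The 4 groups did not overlap, and the transformants lay far below T34. It differed from control by -2.01 with amds122, -2.37 with amds6 and -0.33 with T34, and amds122 was higher than amds6 by 0.36 (95% interval 0.24 to 0.49, adjusted p = 0.000438). Its differences from T34 were -1.68 for amds122 (adjusted p = 3.71e-10) and -2.04 for amds6 (adjusted p = 7.76e-11).

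A further 3 probe sets were described only as transcription factors in the tables of the study. LesAffx.63523.1.S1_at read 5.26, 5.17 and 5.22 in amds122, 5.51, 5.57 and 5.66 in amds6, and 8.13, 7.95 and 7.80 in T34 plants, against 8.29, 8.21 and 8.37 in control plants. It differed from control by -3.07, -2.71 and -0.33 with amds122, amds6 and T34, the widest gap between transformants and T34 among the named members, with -2.74 for amds122 minus T34 (adjusted p = 6.63e-11) and -2.38 for amds6 minus T34 (adjusted p = 3.09e-10). A second probe set of its cluster had -2.00, -2.01 and -0.21 with amds122, amds6 and T34 and missed the limit with T34. LesAffx.56634.1.S1_at averaged 5.58 ± 0.0658 in amds122, 5.96 ± 0.117 in amds6, 6.95 ± 0.0607 in T34 and 7.35 ± 0.131 in control plants, and LesAffx.64439.1.S1_at averaged 5.53 ± 0.365, 6.27 ± 0.0726, 7.12 ± 0.126 and 7.44 ± 0.0832 in the same order of groups (SD, n = 3 each). In both, amds122 was lowest, then amds6, then T34, with control on top.

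Enzymes of the cell wall were also among the lower members. XTH3, a xyloglucan endotransglucosylase like XET4, read 5.58, 5.83 and 5.69 in amds122, 5.56, 5.60 and 5.56 in amds6, and 7.34, 7.28 and 7.28 in T34 plants, against 7.44, 7.89 and 7.79 in control plants. The transformants coincided and T34 lay just under the lowest control array. XTH3 differed from control by -2.01, -2.13 and -0.41 with amds122, amds6 and T34, and from T34 by -1.60 with amds122 (adjusted p = 9.00e-08) and -1.73 with amds6 (adjusted p = 5.78e-08). The family member tXET-B2 had -2.08 with amds122 and -1.82 with amds6, both past the adjusted p, but 0.01 with T34 and was therefore no member. The probe set LesAffx.57363.1.S1_at, described as a cell wall peroxidase, an enzyme that cross-links wall polymers, read 4.25, 4.14 and 4.37 in amds122, 5.36, 5.15 and 4.95 in amds6, and 6.67, 6.78 and 6.76 in T34 plants, against 7.13, 7.12 and 7.16 in control plants. It differed from control by -2.88, -1.98 and -0.40 with amds122, amds6 and T34, and the difference of amds122 from amds6 was -0.90 (95% interval -1.10 to -0.70, adjusted p = 1.53e-05).

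Among the remaining named lower members, fsm1, a small MYB-like protein that restrains cell expansion in fruit, had a shallow and very reproducible pattern. It read 7.72, 7.70 and 7.72 in amds122, 7.44, 7.34 and 7.43 in amds6, and 7.96, 7.95 and 8.04 in T34 plants, against 8.35, 8.33 and 8.32 in control plants. The 4 groups did not overlap, and the differences from control were -0.62, -0.93 and -0.35 with amds122, amds6 and T34. LOC543986, dim and of no described function here, read 4.97, 5.11 and 5.08 in amds122, 4.39, 4.30 and 4.21 in amds6, and 4.61, 4.60 and 4.52 in T34 plants, against 5.26, 5.28 and 5.64 in control plants. It was the only lower member that amds122 left higher than T34 past the adjusted p, by 0.48 (95% interval 0.28 to 0.68, adjusted p = 0.00110), and the only named lower member whose smallest difference was that with amds122 (-0.34, against -1.09 with amds6 and -0.82 with T34).

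LOC543757 was a member by its means while its arrays overlapped. It read 6.88, 5.77 and 4.56 in amds122, 5.86, 6.48 and 5.68 in amds6, and 7.17, 7.02 and 5.42 in T34 plants, against 7.81, 7.03 and 5.74 in control plants. All 4 groups overlapped, replicate 3 was the lowest of each group, and its SD within groups of 0.942 was the highest of all 10038 probe sets. The differences from control were -1.13 with amds122, -0.86 with amds6 and -0.32 with T34. Its smallest difference turned positive without T34 replicate 3 (0.24) and without control replicate 1 (0.15).

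Other lower members were also variable. An SD within groups above 0.3 occurred in 12 of the 50 lower and in 0 of the 57 higher members, and in 7 lower and 0 higher members replicate 3 was the lowest array in all 4 groups. The shares over all probe sets were not counted, so whether this is particular to the lower members was not tested. The median over the lower members of the difference of an array from the control mean was -0.65, -0.96 and -1.17 on the amds122 arrays, -1.0, -0.81 and -0.89 on the amds6 arrays, -0.37, -0.34 and -0.49 on the T34 arrays, and 0.08, -0.01 and -0.04 on the control arrays. Over the higher members the corresponding medians were 0.59, 0.59 and 0.60, then 0.64, 0.70 and 0.67, then 0.40, 0.41 and 0.41, and -0.03, 0.02 and 0.00. The medians of the higher members thus varied little between replicates, and those of the lower ones varied most within amds122. Medians over members do not give the spread of single members.

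**Figure D4:**
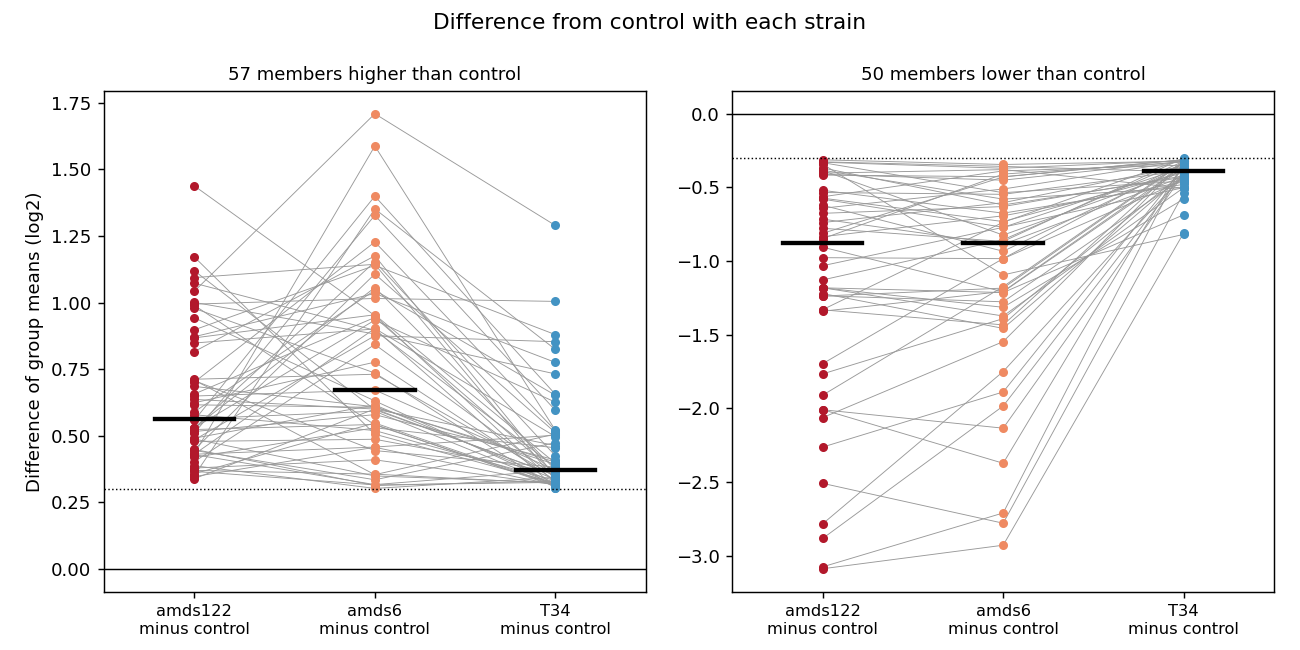
Difference of the group mean from the control mean on the log2 scale for each member with amds122, amds6 and T34; each grey line joins the 3 points of a member, the thick black bars are medians, and the dotted line is the limit of 0.3 in size. Most points crowd just past the limit with T34 in both panels, and 19 of the lower members drop 2-fold or more with both transformants.

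The comparisons between strains were other contrasts than those of the rule, but each is the difference of a pair of values that the rule used, so that they are not independent of the choice of members and their counts are a description. A call required an adjusted p under 0.1 and a 2-fold difference in limma. For amds6 against T34, 39 of the 57 higher members passed the adjusted p upward and 0 downward, where 27% and 18.7% of all probe sets did. Of the 50 lower members, 0 passed upward and 28 downward. With the 2-fold limit, 1 higher member was called upward (0.309% of all probe sets) and 11 lower members downward (1.59% of all probe sets). For amds122 against T34, 27 higher members passed upward and 3 downward, where 28.2% and 20.7% of all probe sets did, and 1 lower member passed upward and 27 downward. With the 2-fold limit 1 higher member was called upward (0.518% of all probe sets) and 14 lower members downward (1.92% of all probe sets).

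Between the transformants, the members were split. For amds122 against amds6, 8 higher members passed upward and 21 downward, and 5 lower members passed upward and 12 downward, where 19.4% and 18.7% of all probe sets passed upward and downward. At 2-fold, 2 higher members were called downward (0.658% of all probe sets) and 0 upward (0.0598%, with 8 past the adjusted p alone). The 2 were LesAffx.35587.1.S1_at at -1.16 and Les.415.1.A1_at at -1.0, both without a gene symbol and named here after their values were seen. The 1 lower member called was NAC1. LesAffx.35587.1.S1_at was also the 1 higher member called for amds6 against T34, at 1.07, and LesAffx.36049.1.S1_at was the 1 called for amds122 against T34, at 1.12. In 14 of the 57 higher and 19 of the 50 lower members none of the 3 comparisons between strains passed the adjusted p, as in 33.9% of all probe sets, and among the named ones these were the cathepsin D inhibitor, ACO6, LOC778266 and LOC543757.

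Most members had no name. The 46 higher ones without a name differed from control by 0.34 to 1.44 with amds122, 0.30 to 1.59 with amds6 and 0.30 to 0.85 with T34. The one with the largest smallest difference, Les.1900.1.S1_at, read 10.11, 10.03 and 10.22 in amds122, 10.28, 10.37 and 10.19 in amds6, and 10.02, 10.11 and 9.94 in T34 plants, against 9.23, 9.30 and 9.20 in control plants, which is 0.87, 1.03 and 0.78 above control. Next came Les.3974.1.A1_at with 1.00, 0.88 and 0.73 with amds122, amds6 and T34. The 37 lower ones without a name were shallower with the transformants and less separate from control than the 13 named ones: all strain arrays lay below all control arrays in 19 of the 37 and in 12 of the 13. Several of the 13 have a name only through the tables of the study. Those descriptions cover genes selected on these arrays by 2-fold changes with both transformants, so nothing is read from this gap. The 37 differed from control by -2.06 to -0.31 with amds122, -1.55 to -0.34 with amds6 and -0.69 to -0.30 with T34. The furthest below control with all strains was LesAffx.22830.1.S1_at, with 6.52, 6.53 and 6.83 in amds122, 6.64, 6.49 and 6.65 in amds6, and 7.13, 6.95 and 7.28 in T34 plants, against 7.70, 7.86 and 7.87 in control plants (-1.18, -1.21 and -0.69). LesAffx.34973.1.S1_at followed with -1.18, -1.31 and -0.58.

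Lists of other tissues and defence genes held few or no members. Of all 10038 probe sets 107 were members, so nothing is read from few or no members in lists this small, here or above. Of 17 probe sets of pathogenesis-related proteins, antimicrobial proteins of infected leaves, 0 were members, with 5 upward and 7 downward past the adjusted p with amds122, 2 and 12 with amds6, 2 of which changed sign under scaling on hybridisation spikes, and 6 and 4 with T34. The trichome markers with a gene symbol were SSTLE1 and MTS1, described above. SSTLE1 passed upward with each strain and MTS1 with none. The rule had chosen SSTLE1 by its differences from control, so nothing is read from its passing. Neryl diphosphate synthase 1, a trichome enzyme and a higher member, has no symbol and was not counted among these markers. The 4 probe sets listed as root markers were PT1, PT2, FRO1 and TPRP-F1. Of these, 0 passed upward and 4 downward with amds122, 1 and 3 with amds6 and 2 and 0 with T34, with medians of -0.40, -0.35 and 0.21. The upward call with amds6 was TPRP-F1 (0.57), and whether this gene marks roots was not tested. Of 10 shoot meristem and vascular markers 3 and 0, 1 and 2, and 0 and 1 passed, with medians of 0.09, -0.02 and -0.07 in the same order of strains. With amds6, 1 root and 2 meristem or vascular calls changed sign under scaling on the spikes, and the part of such cells in the members was not tested.

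Other probe sets of the same cluster or gene gave a partial view of the same transcripts. For 19 higher members there were 29 such sets counted per member, of which 17 were above control with all 3 strains and 2 were themselves members. For 18 lower members there were 36, of which 19 were below control with all 3 strains and 2 were members. In each direction the members among these sets were a pair from the same cluster, counted from both sides. Some other sets were also counted more than once, and many of the lower ones came from the same cluster. The share of all probe sets on the same side of control with all 3 strains was not counted. Nothing is therefore read from these counts. The median differences of these sets were 0.16, 0.20 and 0.10 with amds122, amds6 and T34 beside the higher members. Beside the lower members they were -0.15, -0.16 and -0.06. In each case they were smaller in size than those of the members. The rule chose the members by the size of these differences, so nothing is read from this gap. Where the sets of a gene disagree, as for ACO6, a member does not stand for all of them.

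Membership depended on single arrays, mostly on those of control and T34. Without any 1 array, 29 of the 57 higher and 16 of the 50 lower members stayed in all 12 sets, and every named member except LOC778266, TSW12, LOC543855, ER24, LOC543986, LOC543757 and the factors LesAffx.63523.1 and LesAffx.64439.1 was among them. Leaving out 1 array of a transformant gave 55 to 58 higher and 44 to 51 lower members. Leaving out T34 arrays gave 56 to 60 and 40 to 73, and leaving out control arrays 56 to 80 and 38 to 117. The 117 lower members arose without control replicate 3 and shared 43 of the 50, and the 38 arose without control replicate 1 and shared 27.

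**Figure D5:**
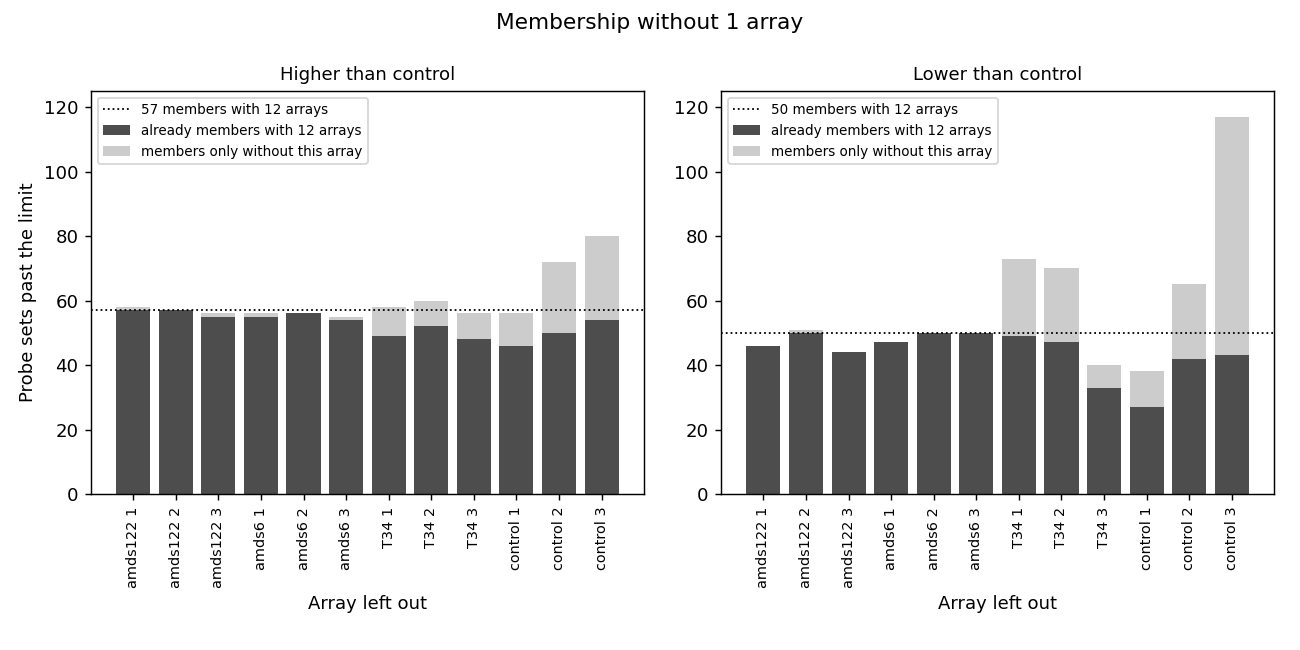
Number of probe sets past the limit with all 3 strains when the array on the horizontal axis is left out (vertical axis, count), for members higher and lower than control; dark bars are members found with all 12 arrays, light bars are probe sets that pass only without that array, and the dotted line is the count with all arrays. The bars stay near the line for the transformant arrays and reach 117 lower members without control replicate 3.

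The 3′ minus 5′ signal was also entered as a covariate. With it, 155 higher and 57 lower members were found, of which 36 and 21 were among the 57 and 50. When the arrays were scaled on 27 probe sets of hybridisation spikes, the median over all probe sets moved to 0.05 with amds122, 0.34 with amds6 and 0.08 with T34, and 168 higher and 20 lower members were found, which held all 57 of the higher ones and 20 of the lower ones. All 9 strain arrays had a lower 3′ minus 5′ signal than the 3 control arrays, so that RNA degradation and the presence of a strain cannot be told apart.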

How the data were processed

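Labelled cRNA from the 12 pools was hybridised to Affymetrix Tomato Genome Arrays. The authors summarised each probe set with RMA in Affymetrix Expression Console and deposited the result on the log2 scale (versions not given in the sources used here), which includes quantile normalization, after whole-transcriptome amplification of the cDNA. No probe-level or scanner intensities were used here, so background and saturation are unknown. Precision rests on 3 arrays per group. Amplification and 3′-based labelling weight the signal towards 3′ ends.

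Groups came from the sample labels, and 0 other columns of values were present. Of 10209 features, 108 control and 63 reporter sets were left out of the tests. Members are the sets defined in the report, named by the symbol in the platform annotation (909 of 10038 sets have 1 symbol, 9129 have none, and 885 symbols matched RefSeq) or by the description in the tables of the study, which list genes selected on these arrays. Every member with either was named. The gene lists hold only probe sets with a gene symbol. The tables of the study also hold fold changes, which were not used. The members, gene lists and tests were chosen with earlier results of these data known.

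R 4.3.3 and limma 3.58.1 were used: 1 mean per group over all 12 arrays, empirical Bayes moderation (prior df 3.69, residual df 8), Benjamini-Hochberg adjustment over all 10038 sets, an adjusted p limit of 0.1 and, for calls, a 2-fold limit, as in the methods of the study, which used a multi-class test instead. P-values measure the spread between pools. An exact two-sided test of 3 against 3 arrays cannot go below 0.1. The fit was tested on simulated data. Alternatives were scaling, filtering, weights, size limits, a 3′ minus 5′ covariate, a replicate block and leaving out each array.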

Additional observations from a re-analysis of the deposited data

Results flagged for a closer look

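Each value here is a difference between strains that passed an adjusted p of 0.1 and a 2-fold limit in limma, so that 2 strains differed in their distance from the shared control. For amds6 minus T34, 12 members were called. The named ones, all among the lower members, were LesAffx.63523.1.S1_at (transcription factor) at -2.38, the ubiquitin ligase at -2.24, the AAA ATPase at -2.12, ER24 at -2.04, XTH3 at -1.73, the cell wall peroxidase at -1.58, LOC543855 at -1.53 and NAC1 at -1.34.

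For amds122 minus T34, 15 members were called. The named ones were LesAffx.63523.1.S1_at at -2.74, the cell wall peroxidase at -2.48, NAC1 at -2.37, the AAA ATPase at -2.28, the ubiquitin ligase at -1.97, LOC543855 at -1.90, ER24 at -1.68, XTH3 at -1.60, and the transcription factors LesAffx.64439.1.S1_at at -1.59 and LesAffx.56634.1.S1_at at -1.36.

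For amds122 minus amds6, 3 members were called, of which NAC1, at -1.03, was named. NAC1 was not called after centring, after quantile normalization, without amds122 replicate 3 or without amds6 replicate 1, at -0.996, -0.999, -0.995 and -0.994. After centring or quantile normalization 1 of the 3 calls was left.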

How the results depend on the processing

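Scaling on hybridisation spikes gave 168 higher and 20 lower members, and the 3′ minus 5′ covariate 155 higher. A size limit of 0.25 gave 105 and 78, of 0.4 gave 20 and 16, and of 0.5 gave 10 and 6. With the adjusted p of limma added, 54 higher and 30 lower members remained without a replicate block, and 54 and 34 with the block. Of all 10038 probe sets, 625 passed that adjusted p with all 3 strains, in any direction, without the block. The rule used the same differences from control, so nothing is read from these counts. Leaving out 1 array gave 55 to 80 higher and 38 to 117 lower members, the 117 without control replicate 3. The cause of these shifts was not tested.

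Calls at 2-fold for amds122 minus amds6 (2 higher, 1 lower) were 1 and 0 after centring, 1 and 0 after quantile normalization, 4 and 4 on the spikes, 1 higher with array weights and 2 lower with the covariate. For amds6 minus T34, 3 higher members were called on the spikes, and for amds122 minus T34, 2 with the covariate. Without the fold limit, the higher and lower counts were 39 and 28 for amds6 minus T34, 30 and 28 for amds122 minus T34, and 29 and 17 for amds122 minus amds6. Leaving out 1 array gave 1 to 2 higher and 0 to 2 lower calls for amds122 minus amds6.

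For LOC543757 the smallest difference was 2.71 with the covariate and -0.88 to 0.24 without 1 array, positive without T34 replicate 3 or control replicate 1. Of 456 alternative values of named members, 441 stayed within the replicate spread, 12 moved and 3 changed sign. The labels name nothing that arrays of 1 replicate number share. The study took its pools for real-time PCR from separate plant assays, and whether arrays of 1 number shared an assay is not stated. Deviations of same-numbered arrays of different groups correlated at -0.05 to 0.55, over 0.1 in 10 of 18 pairs, against -0.47 to 0.30 for different numbers, and 2 of 12 arrays correlated best with their own number in every other group, so the numbers were not used as pairs. The block left the calls between strains as they were in number. Against control, it brought the adjusted p in limma of LOC543757 from 0.174 to 0.0181 with amds122 and from 0.308 to 0.0599 with amds6, and that of LesAffx.64439.1.S1_at with T34 from 0.213 to 0.0924. That of LOC543757 with T34 stayed above the limit, at 0.625. The rule chose both members by these differences from control, so nothing is read from these p-values. Signal over background is not known for these values.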
